A study of Mus musculus with 4 samples.

Results

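Long noncoding RNAs (lncRNAs) were followed in mouse 4T1 breast tumors treated with a splice modulating oligomer (SMO) against the long form of the prolactin receptor. The 8 genes were taken from a list: *Malat1*, *Neat1*, *H19*, *Meg3*, *Kcnq1ot1*, *Gas5*, *Snhg1* and *Snhg12*. They are 8 of the 11259 genes with at least 1 transcript assigned in any library. Transcripts were placed on a gene where they shared at least 1 annotated intron with it or had at least 50% of their exon bases inside its exons. In the library labelled tumor Treg, transcripts that already carried a gene name were placed by that name. Of the 8 genes, 7 had a transcript in the whole tumor library of Control SMO, 8 in that of LFPRLR SMO and 5 in the library labelled tumor Treg.

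Tumors were grown from 4T1 cells, an established Balb/c mammary carcinoma line, in the mammary fat pad of Foxp3+EGFP Balb/c mice aged 8 weeks, in which Foxp3-expressing cells carry a green fluorescent protein. Control SMO or LFPRLR SMO was given for 12 days at 100 pmol per hour, and no group was left without an oligomer. RNA from 6 mice was pooled into 1 library per treatment, for whole tumor and separately for cells sorted from tumors on Foxp3, and ribosomal RNA was depleted rather than poly(A) RNA selected. Each group is therefore 1 sample, with no SD and no test, and every difference below is a difference between 2 pools. In a whole tumor, fewer cells of a type and less RNA per cell cannot be told apart.

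The whole tumor values are transcripts assembled from the reads without gene names, each with an FPKM (fragments counted per kilobase of transcript and scaled to the library's mapped fragments) and a mean read depth. A gene can be assembled in several pieces, called parts here. Control SMO had 22481 transcripts, of which 33.9% were single-exon and 17.0% could be placed on no gene. LFPRLR SMO had 31908 transcripts, of which 53.6% were single-exon and 36.6% could be placed on no gene. The 4838 transcripts labelled tumor Treg had the same values under both treatment labels, so no treatment comparison was made there. That library listed 0 of 12 T cell markers, *Foxp3*, *Cd3e* and *Cd4* among them, and all 12 macrophage markers at a summed 484 FPKM. It also listed 6 of 8 epithelial markers at a summed 21.5 FPKM, 3 of 7 fibroblast markers at 24.2 FPKM and 0 of 5 endothelial markers. Whole tumor also listed 0 of the 12 T cell markers, and its macrophage markers summed to 659 FPKM with Control SMO and 430 FPKM with LFPRLR SMO.

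Nuclear lncRNAs act largely where they are made. *Malat1* is an abundant unspliced RNA of nuclear speckles, bodies rich in splicing factors, and the long form of *Neat1* is the scaffold of paraspeckles, bodies that hold RNA-binding proteins. *H19*, *Meg3* and *Kcnq1ot1* come from imprinted loci, where only the copy from one parent is expressed, and *H19* is also the precursor of a microRNA. *Gas5*, *Snhg1* and *Snhg12* host small nucleolar RNAs (snoRNAs) in their introns. Splicing frees these introns, trimming leaves the snoRNAs that guide chemical modification of ribosomal RNA, and the joined exons are mostly sent to nonsense-mediated decay. Their transcription start sites are known for a pyrimidine-rich first stretch.

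The sequences that carry the comparison are the ends and junctions of the spliced genes, since they show which RNA form was assembled. The windows around the RefSeq start sites of the host genes (GRCm38.p6, plus strand) are given with capitals from the RefSeq start onward. The earliest spliced part began 9 and 10 bases after this start in *Gas5* with Control SMO and LFPRLR SMO. In *Snhg1* it began 13 and 19 bases after the RefSeq start, and in *Snhg12* 21 bases after it with Control SMO. The other *Snhg1* parts, also spliced, began further in. They began at base 122 from the annotated start with Control SMO and at bases 182 and 1342 with LFPRLR SMO. The earliest *Snhg1* part of LFPRLR SMO, at 0.922 FPKM, had only base 32 from the annotated start as its first exon.
*Gas5*, chr1:161035146-161035186: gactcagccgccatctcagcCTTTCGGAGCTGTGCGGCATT
*Snhg1*, chr19:8723467-8723516: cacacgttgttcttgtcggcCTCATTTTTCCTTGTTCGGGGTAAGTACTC
*Snhg12*, chr4:132308658-132308709: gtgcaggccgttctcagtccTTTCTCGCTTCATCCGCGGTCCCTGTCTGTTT

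With LFPRLR SMO the *Snhg12* part began before its RefSeq start, by 8 bases. The last junction of *Snhg1* and that of *Snhg12* (GRCm38, plus strand) were assembled with Control SMO and not with LFPRLR SMO. Lower case marks the upstream exon and capitals the downstream exon. The coordinates span the intron.
*Snhg1* junction, chr19:8726088-8726253: gcgtgtgaaggatagGAACAGAAATCATGA
*Snhg12* junction, chr4:132310490-132310848: gtctacacttgttggAAAAATTCCACAAGA

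In *Snhg1* with LFPRLR SMO, the same stretch was read as 1 exon through this intron. Here the 136 intron bases are in capitals and the exon bases in lower case.
*Snhg1* unspliced, chr19:8726088-8726253: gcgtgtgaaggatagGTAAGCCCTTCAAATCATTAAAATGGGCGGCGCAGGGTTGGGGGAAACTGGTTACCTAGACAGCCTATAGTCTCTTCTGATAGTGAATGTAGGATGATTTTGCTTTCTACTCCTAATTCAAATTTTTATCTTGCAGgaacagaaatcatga

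*Malat1* (chr19:5795690-5802672, minus strand, GRCm38) is annotated over 6983 bases and was the most abundant single transcript of the 8 genes that was not shorter than 300 bases. It had 1 unspliced part of 6575 bases at 247 FPKM with Control SMO and 1 of 5932 bases at 333 FPKM with LFPRLR SMO. The library labelled tumor Treg listed it at 81.7 FPKM over 6982 bases. These 3 values are the 68th, 35th and 25th highest summed gene levels of their libraries, among 9597, 9701 and 3430 genes with a longest transcript of at least 300 bases outside the mitochondrial genome. The mean read depth over the part was 469 with Control SMO against 588 with LFPRLR SMO.

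The part with Control SMO covered 94.2% of the gene and that with LFPRLR SMO 81.2%. The missing stretch was at the 3′ end, where the last 399 bases were not covered with Control SMO and the last 1312 bases were not covered with LFPRLR SMO. The LFPRLR SMO part also began 261 bases before the annotated start. The deposited 95% bounds, which describe 1 library only, were 246 to 255 with Control SMO and 323 to 335 with LFPRLR SMO and did not overlap. The log2 ratio of LFPRLR SMO to Control SMO was 0.43, and 0.22 when each part was weighted by the share of the gene it covers.

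*Neat1* (chr19:5824708-5845478, minus strand) lies beside *Malat1* on the same strand and is annotated over 20771 bases. The direction of its difference depended on how its parts were combined. Control SMO had 7 unspliced parts that sum to 14.05 FPKM and LFPRLR SMO had 2 that sum to 9.62 FPKM, and such a sum grows with the number of parts a gene is cut into. Weighted by the bases each part covers, the level was 2.74 FPKM with Control SMO and 5.47 FPKM with LFPRLR SMO, a log2 ratio of 0.97.

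Read along the gene, the LFPRLR SMO value was above the Control SMO value at each of the bases covered in both libraries. Control SMO had a part of 10501 bases at the 5′ end at 3.91 FPKM (bounds 3.54 to 4.27), followed by 6 parts between 1.47 and 1.85 FPKM that carry no strand. LFPRLR SMO had a part of 15632 bases at 6.14 FPKM (bounds 5.75 to 6.52), followed by 1 part of 5048 bases at 3.48 FPKM (bounds 2.94 to 4.02), again without strand. Over the 20109 bases covered in both libraries the mean was 2.83 FPKM with Control SMO and 5.51 FPKM with LFPRLR SMO. A part ended at base 15644 from the annotated start in both libraries.

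The 5′ part of *Neat1* was above the parts after it in both libraries. The first 3172 bases, which the short annotated form reaches, averaged 3.90 FPKM with Control SMO against 2.53 FPKM over the rest, a ratio of 1.54. With LFPRLR SMO they averaged 6.11 FPKM against 5.35 FPKM, a ratio of 1.14. Each part has the same FPKM over its whole length, so no step at base 3172 can be seen. The ratios reflect where the 5′ part ends, at base 10511 with Control SMO and base 15644 with LFPRLR SMO. Control SMO covered 96.8% of the gene and LFPRLR SMO 99.6%, at mean read depths of 5.16 and 9.58 over the gene. Neither library separates the short form from the long one, which contains it.

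**Figure D1:**
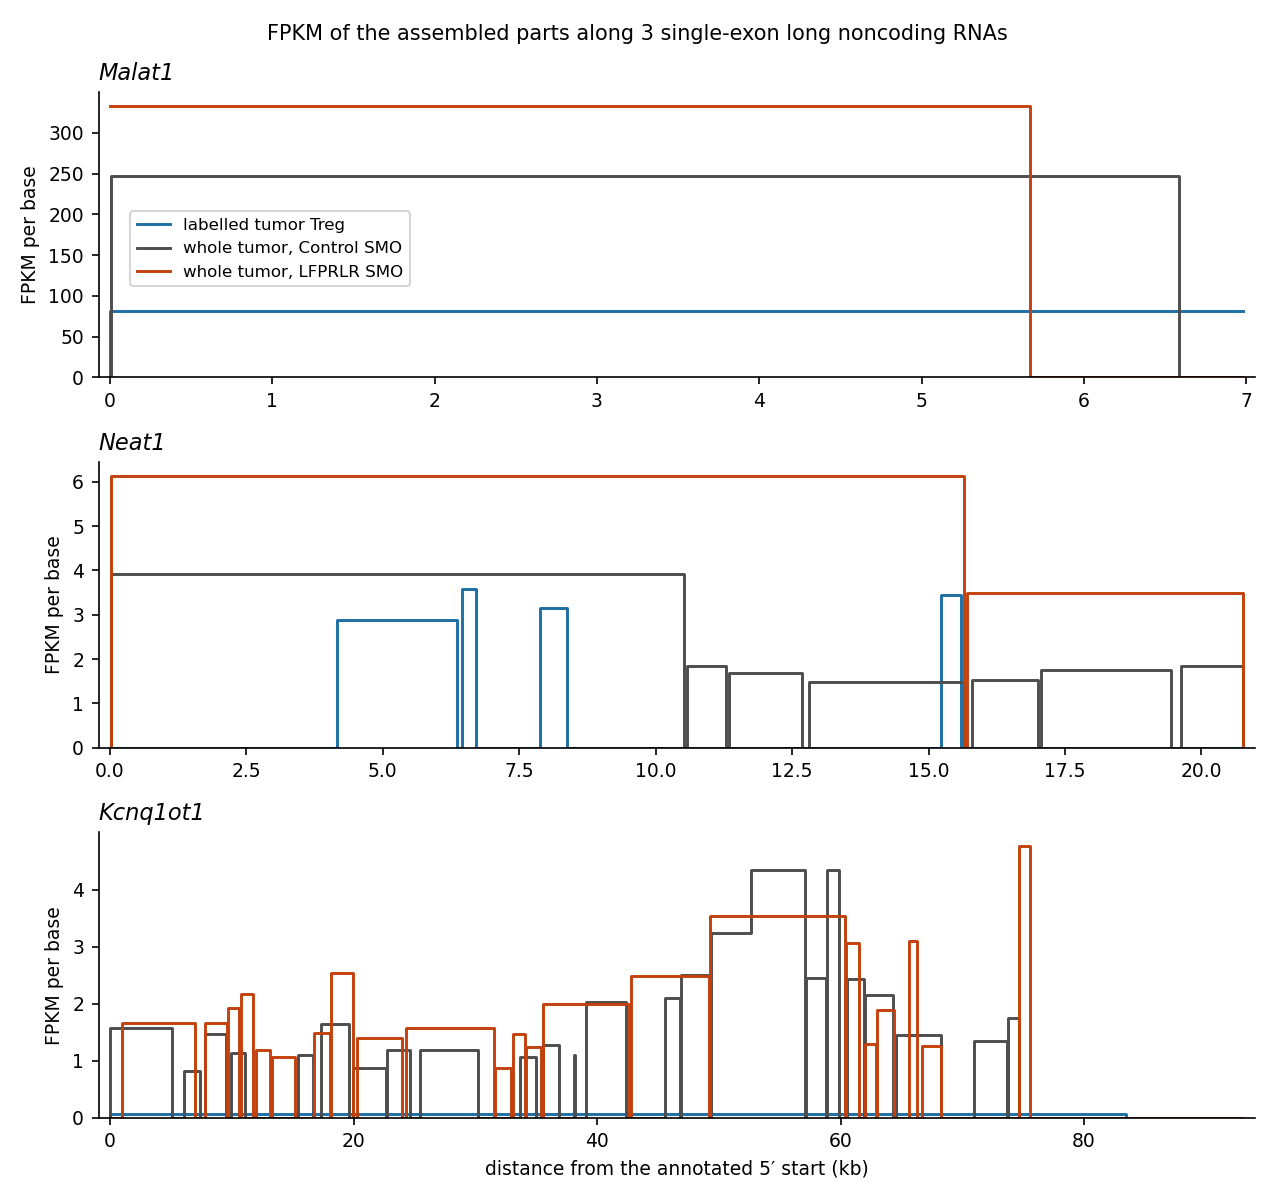
FPKM per base along *Malat1*, *Neat1* and *Kcnq1ot1* against the distance from the annotated 5′ start in kb, with 1 line per library. *Neat1* with LFPRLR SMO runs at 6.14 and then 3.48 FPKM, above Control SMO at 3.91 and then 1.47 to 1.85 FPKM, and the *Kcnq1ot1* parts of both whole tumor libraries end near 75 kb.

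*H19* (chr7:142575529-142578143, minus strand), the imprinted growth-restraining RNA next to *Igf2*, was assembled in the same way in both whole tumor libraries. Each had 1 part of 5 exons with the same 4 introns, all of them annotated, at 160 FPKM with Control SMO and 115 FPKM with LFPRLR SMO. The parts were 2243 and 2277 bases long and covered 91.2% and 92.6% of the annotated exon bases. The log2 ratio was -0.47, and between -0.47 and -0.33 when weighted, centred on the median gene, or restricted to bases covered in both libraries or to a TPM over transcripts of at least 300 bases. In both libraries the deposited FPKM lay above its own upper bound, which was 151 with Control SMO against 111 with LFPRLR SMO, and for this gene no error is read from the bounds.

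The 4 junctions (GRCm38, minus strand) show the assembled form, with the downstream exon in capitals and coordinates that span the intron.
*H19* junction 1, chr7:142576733-142576843: ggactggagactaggCCAGGTCTCCAGCAG
*H19* junction 2, chr7:142576516-142576627: catccagccttcttgAACACCATGGGCTGG
*H19* junction 3, chr7:142576316-142576423: ccctcaagatgaaagAAATGGTGCTACCCA
*H19* junction 4, chr7:142576100-142576217: ggaatctgctccaagGTGAAGCTGAAAGAA

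No *H19* transcript in either library read through any of these introns. *Mir675*, the microRNA gene inside *H19*, lies 997 to 1080 bases from the start, within the exon of the part in both libraries, and had no whole tumor transcript of its own. Its mature RNAs, from RefSeq (GRCm38.p6, minus strand), are given with the seed, bases 2 to 8, in capitals.
mmu-miR-675-5p, chr7:142577112-142577133: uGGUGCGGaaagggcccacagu
mmu-miR-675-3p, chr7:142577078-142577099: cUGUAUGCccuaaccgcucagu

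The 2 arms have different seeds. The values of the part over *Mir675* are those of *H19* itself and do not measure the mature RNAs. In the library labelled tumor Treg *H19* was listed as 1 unspliced transcript of 2615 bases at 0.0699 FPKM and a read depth of 0.0662, and *Mir675* was listed at 0.

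*Meg3* (chr12:109541001-109571726, plus strand), a growth-restraining RNA from the imprinted *Dlk1* locus, was the least covered gene. No part was listed with Control SMO or in the library labelled tumor Treg. LFPRLR SMO had 2 unspliced parts, of 994 bases at 2.74 FPKM and of 1625 bases at 2.34 FPKM, at read depths of 4.75 and 4.06. Both lay between 3317 and 6039 bases from the start and together covered 11.7% of the exon bases. None of them held an annotated intron, so the spliced RNA was not assembled in any library. Of 4 small RNA genes annotated inside *Meg3*, 2 lay within the 994-base part, the microRNA gene *Mir1906-1* and *Gm27300*, while the microRNA gene *Mir770* had no part over it. The level weighted over the longest transcript of 14548 bases was 0.369 FPKM, and no ratio is given against a library that lists no part. *Dlk1* and *Rtl1*, the protein-coding genes of the same locus, had no transcript in any library. *Rian*, another lncRNA of the locus, was listed at 7.54 FPKM with Control SMO and 10.9 FPKM with LFPRLR SMO summed over its parts. Weighted, it was at 0.890 and 1.27 FPKM. *Igf2*, the growth factor gene beside *H19*, had no transcript in any library either.

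*Kcnq1ot1* (chr7:143203458-143296549, minus strand) is a very long unspliced RNA, antisense to *Kcnq1*, that keeps its imprinted neighbours silent. It is annotated over 93092 bases and came in 23 parts with Control SMO against 22 with LFPRLR SMO. Each part was low, between 0.813 and 4.34 FPKM with Control SMO and between 0.871 and 4.76 FPKM with LFPRLR SMO, with median part lengths of 1887 and 1344.5 bases. Summing the parts gave 40.2 and 43.6 FPKM, whereas the weighted level was 1.11 FPKM with Control SMO and 1.403 FPKM with LFPRLR SMO. The summed rank of this gene, 435th and 313th, therefore rests on the number of its parts, and by weighted level it ranked 7772nd of 10070 and 6761st of 10708.

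The 2 libraries covered 56.9% and 65.3% of *Kcnq1ot1*. Both had their highest stretch between 50001 and 60000 bases from the start, at a mean of 3.60 FPKM with Control SMO and 3.53 FPKM with LFPRLR SMO. Between 10001 and 20000 bases the means were 0.633 and 1.31 FPKM, and between 30001 and 40000 bases they were 0.529 and 1.53 FPKM. The last covered base was 74633 with Control SMO against 75538 with LFPRLR SMO, so that the last 18459 and 17554 annotated bases had no part in either. The median read depth of a part was 2.40 and 2.91. Over the 43389 bases covered in both libraries the mean was 2.07 and 2.24 FPKM, a log2 ratio of 0.11 with the pseudocount.

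With Control SMO, 1 *Kcnq1ot1* part at 1.10 FPKM was spliced over an unannotated intron of 14479 bases. *Kcnq1*, the potassium channel gene on the opposite strand, had 1 transcript of 7 exons at 1.55 FPKM with LFPRLR SMO and none with Control SMO. *Cd81*, a membrane protein gene further along the same imprinted region, was listed at 40.1 and 14.9 FPKM summed and at 18.97 and 13.7 FPKM weighted. *Phlda2*, an imprinted growth regulator, was listed at 2.30 and 1.63 FPKM. The library labelled tumor Treg listed *Kcnq1ot1* as 1 transcript of 83437 bases at 0.0667 FPKM and a read depth of 0.0631.

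*Gas5* (chr1:161034422-161038539, plus strand) had the largest summed level of the 8 genes with Control SMO and the largest summed difference among the 7 genes listed in both libraries, and both rested on short unspliced parts. The sum was 774 FPKM with Control SMO over 5 parts and 107 FPKM with LFPRLR SMO over 2 parts, a log2 ratio of -2.86. The spliced RNA had the other order. It was 1 part of 10 exons in each library with the same 9 annotated introns, at 42.0 FPKM with Control SMO and 74.6 FPKM with LFPRLR SMO, a log2 ratio of 0.83. Restricted to parts of at least 300 bases the levels were 58.3 and 74.6 FPKM.

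The other parts of *Gas5* are single exons over snoRNA genes of its introns. With Control SMO they were a part of 155 bases at 527 FPKM over the snoRNA *Gm26224* in intron 1, a part of 219 bases at 169 FPKM that runs from intron 2 through the exon into intron 3 over *Gm22357*, a part of 261 bases at 20.1 FPKM over *Snord78*, and a part of 376 bases at 16.3 FPKM, without strand, over most of *Snord80*. LFPRLR SMO had only a part of 293 bases at 32.0 FPKM, also over *Gm26224*. The mean read depth of the *Gm26224* parts was 621 with Control SMO against 41.8 with LFPRLR SMO.

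The deposited FPKM of the short parts did not fall within their own bounds. That of the 155-base part lay far outside its own bounds of 4.03 to 14.6, and all 5 *Gas5* parts of Control SMO were above their upper bounds, as was the short part of LFPRLR SMO at 14.3. Among the 75 parts of the 8 genes in whole tumor, 8 had an FPKM outside the bounds, and 6 of these 8 were *Gas5* parts. The bounds of the spliced part were 21.8 to 31.9 with Control SMO and 66.8 to 82.4 with LFPRLR SMO.

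These snoRNAs (GENCODE M21, GRCm38, plus strand) are of the box C/D kind, which guide methylation of ribosomal RNA. The letters TGATGA were searched on the RNA strand in the first 20 bases and CTGA in the last 20, and matches are in capitals. Both were present in *Gm26224* and *Gm22357*, only CTGA in *Snord78*, and both in 65.3% of the 343 annotated snoRNAs of 60 to 90 bases.
*Gm26224*, chr1:161035394-161035473: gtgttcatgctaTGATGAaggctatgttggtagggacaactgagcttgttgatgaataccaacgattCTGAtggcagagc
*Gm22357*, chr1:161036057-161036139: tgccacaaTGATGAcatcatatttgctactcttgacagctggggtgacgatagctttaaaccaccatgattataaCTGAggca
*Snord78*, chr1:161036984-161037049: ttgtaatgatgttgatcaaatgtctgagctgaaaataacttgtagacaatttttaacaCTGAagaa

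*Gas5* holds 10 annotated snoRNAs, 2 of them overlapping entries of *Snord80*. With Control SMO, 4 lay wholly inside an assembled exon, and with LFPRLR SMO 2 did. In both libraries *Mir5117*, which is annotated as a snoRNA, lay in an exon of the spliced part. The share of annotated exon bases covered was 41.3% with Control SMO and 24.8% with LFPRLR SMO, since the annotation counts many intron-retaining transcripts. The library labelled tumor Treg listed *Gas5* at 0.00834 FPKM.

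*Snhg1* (chr19:8723475-8726443, plus strand) was lower with LFPRLR SMO under every way of combining its parts except a TPM over transcripts of all lengths, and its form differed too. Control SMO had 2 parts, of 10 exons at 12.1 FPKM and of 4 exons at 4.18 FPKM. LFPRLR SMO had 4 parts of 9, 6, 3 and 3 exons at 0.922, 1.73, 0.750 and 1.89 FPKM. The sum was 16.3 against 5.29 FPKM, a log2 ratio of -1.60, and the weighted level was 5.81 against 2.35 FPKM, a log2 ratio of -1.27. The read depth of the parts was 7.67 and 22.2 with Control SMO and 1.26 to 3.18 with LFPRLR SMO.

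The last intron of *Snhg1*, printed above, was spliced in both parts of Control SMO and read through in all 4 parts of LFPRLR SMO. These 4 parts also ended 696 bases past the annotated 3′ end, where no other gene is annotated and where Control SMO had no transcript. Such differences were found in few introns and genes in both directions. Among 83431 annotated introns assembled with Control SMO, 326, or 0.391%, were not assembled but read through with LFPRLR SMO, and in the other direction it was 194 of 76286, or 0.254%. Of 7647 genes with a spliced part in both libraries, 47, or 0.615%, ended at least 500 bases past the annotated end with LFPRLR SMO and not past it with Control SMO, and 39, or 0.510%, did the reverse.

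All 8 snoRNAs of *Snhg1* lie in its introns. Of these, 6 fell inside an exon of a part with Control SMO, all of them in the 4-exon part at 4.18 FPKM, and 7 with LFPRLR SMO. For intron 5, which holds *Gm22744*, spliced parts made up 100% of the summed FPKM with Control SMO and 50.1% with LFPRLR SMO. For introns 2 and 3 the values were 74.3% and 34.7%, and for intron 8 they were 74.3% and 64.3%. The order was the other way for intron 6, at 74.3% and 85.8%, and for intron 7, at 74.3% and 100%. The LFPRLR SMO library also had a larger share of single-exon and unplaced transcripts, and the part of this in these values was not tested.

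*Snhg12* (chr4:132308623-132311024, plus strand) had 1 spliced part in each library, of 5 exons and 557 bases at 7.15 FPKM with Control SMO and of 4 exons and 466 bases at 5.65 FPKM with LFPRLR SMO. The log2 ratio was -0.34, and the bounds, 4.68 to 9.62 and 2.82 to 8.47, overlapped. The 3 introns found in both hold *Snora16a*, *Snora44* and *Snora61*, snoRNAs of the box H/ACA kind, which guide the conversion of uridine to pseudouridine. The fourth intron, which holds *Snord99*, was spliced with Control SMO. With LFPRLR SMO the part ended inside that intron, 477 bases before the annotated 3′ end, so the intron was neither spliced nor read through. None of the snoRNAs lay in an exon of a whole tumor part. The exon bases covered were 23.2% and 19.4%.

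**Figure D2:**
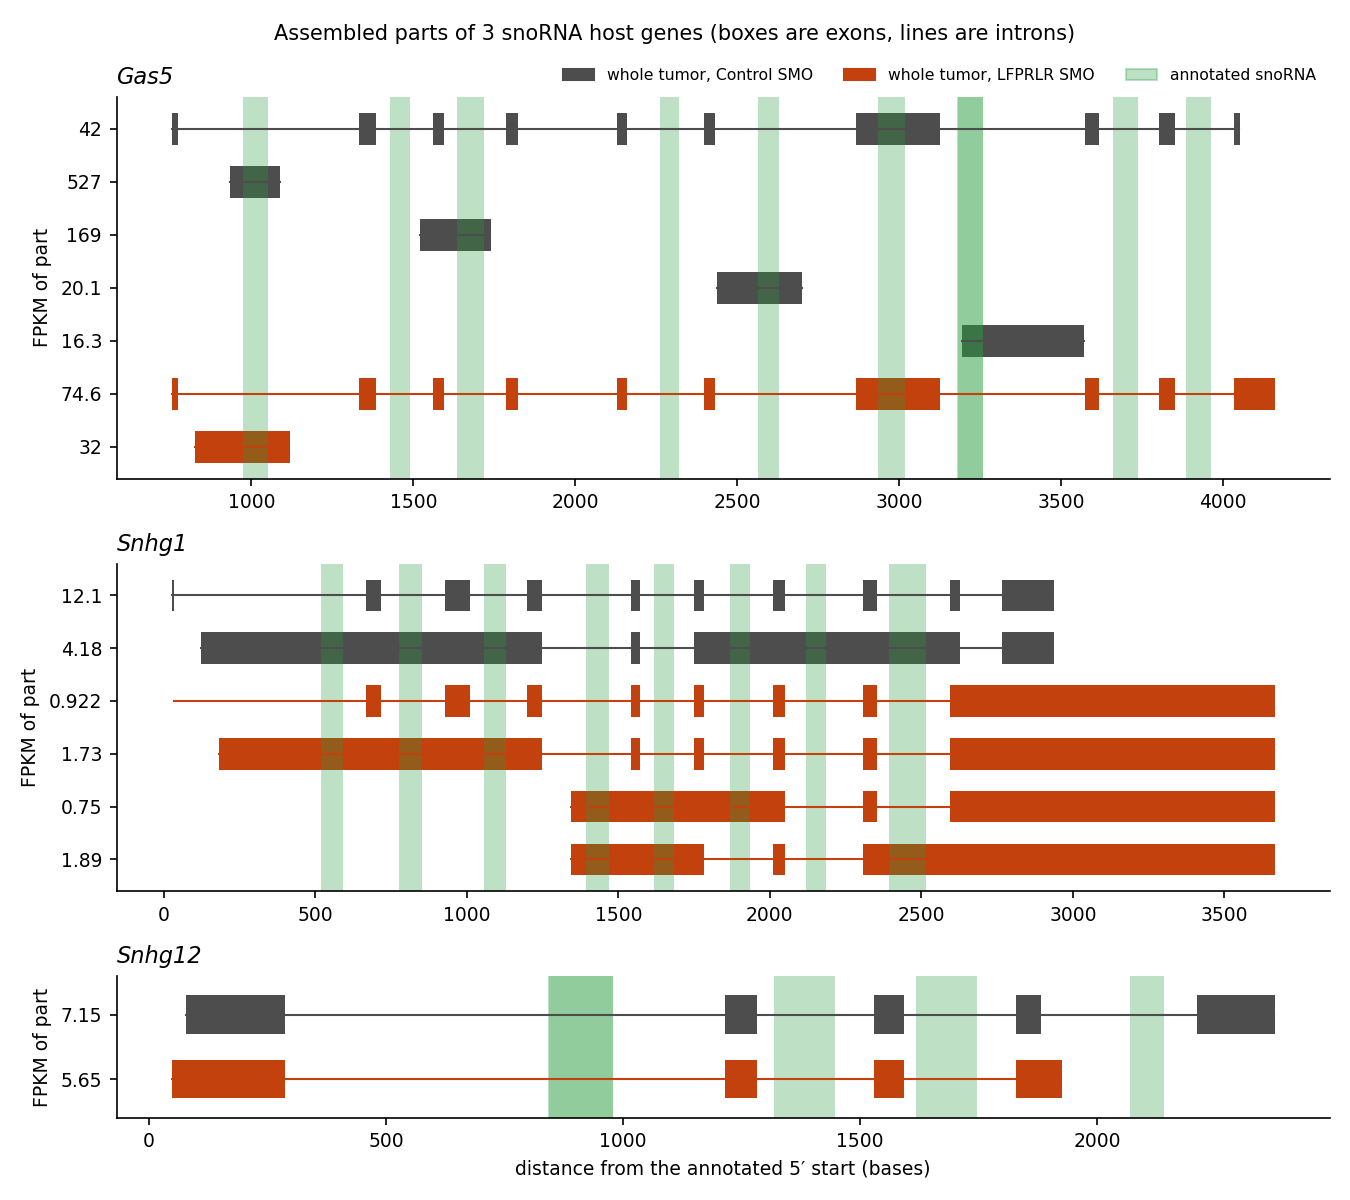
Assembled parts of *Gas5*, *Snhg1* and *Snhg12* against the distance from the annotated 5′ start in bases, with each part labelled by its FPKM, and annotated snoRNAs shaded (overlapping entries darker). The short *Gas5* parts at 527, 169, 20.1 and 16.3 FPKM with Control SMO sit over snoRNAs, and the 4 *Snhg1* parts of LFPRLR SMO share a long last exon.

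Side by side, Control SMO had 40 parts of the 8 genes and LFPRLR SMO 35, and LFPRLR SMO was within a factor of 2 of Control SMO for 5 genes by the summed value. With a pseudocount of 0.1 FPKM, *Meg3* was counted as higher by this factor because it was listed with LFPRLR SMO only, and *Gas5* and *Snhg1* as lower. Over all 10495 genes at 1 FPKM or more in either library, 18.7% were higher and 17.1% lower by this factor, so that 1 and 2 of 8 are near the background. By weighted level, *Gas5* and *Snhg1* were lower among the 7 genes at 1 FPKM or more, and none was higher. The background over 8902 genes was then 5.74% higher and 8.53% lower. The weighted level of *Gas5* still counts its short unspliced parts, among them that of 155 bases at 527 FPKM with Control SMO. Its spliced part alone had the other order, at 42.0 FPKM with Control SMO and 74.6 FPKM with LFPRLR SMO. The median log2 ratio was -0.41 for the 8 genes summed and -0.08 for all genes, and -0.45 for the 7 genes weighted against -0.16 for all genes.

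The ratios of *Malat1* and *Kcnq1ot1* were above 0, and those of *H19*, *Snhg1* and *Snhg12* below 0, under each way of combining parts, except that a TPM over all transcripts put all 8 genes above 0. The summed FPKM that this scaling divides by differed between the libraries by 4.55 on the log2 scale, and the ratios, which carry the pseudocount, moved by other amounts, most so in low genes. In Control SMO, 1 transcript of 96 bases made up 85.0% of that sum. For a TPM over transcripts of at least 300 bases the sums differed by 0.15, which left these 5 directions in place. *Malat1*, *H19* and *Snhg12* had 1 part in each whole tumor library. Most ways of combining parts therefore return the same ratio for these genes and add no separate evidence. The direction of *Neat1* and of *Gas5* depended on the way of combining parts.

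**Figure D3:**
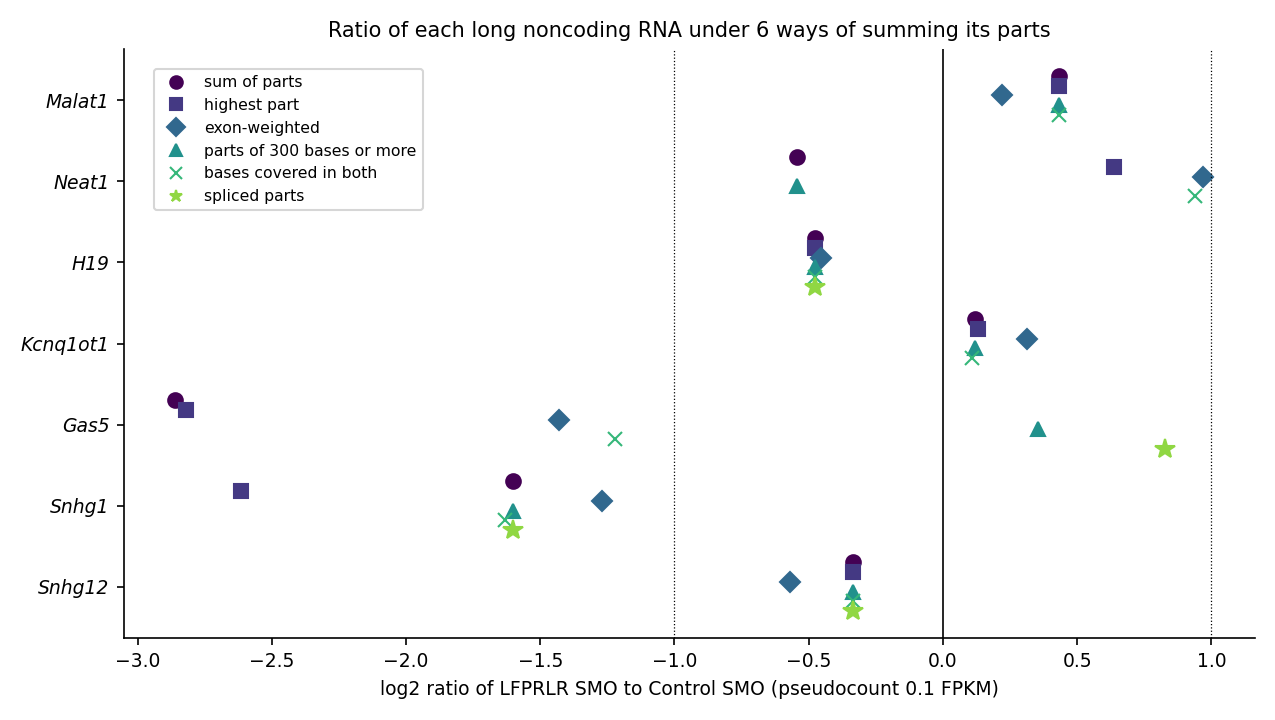
The log2 ratio of LFPRLR SMO to Control SMO for the 7 genes listed in both whole tumor libraries under 6 ways of combining parts, with the factor of 2 as dotted lines. *Neat1* lies at -0.54 summed and 0.97 weighted, and *Gas5* at -2.86 summed and 0.83 for its spliced part. A TPM over all transcripts, not drawn, puts all of them above 0.

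**Figure D4:**
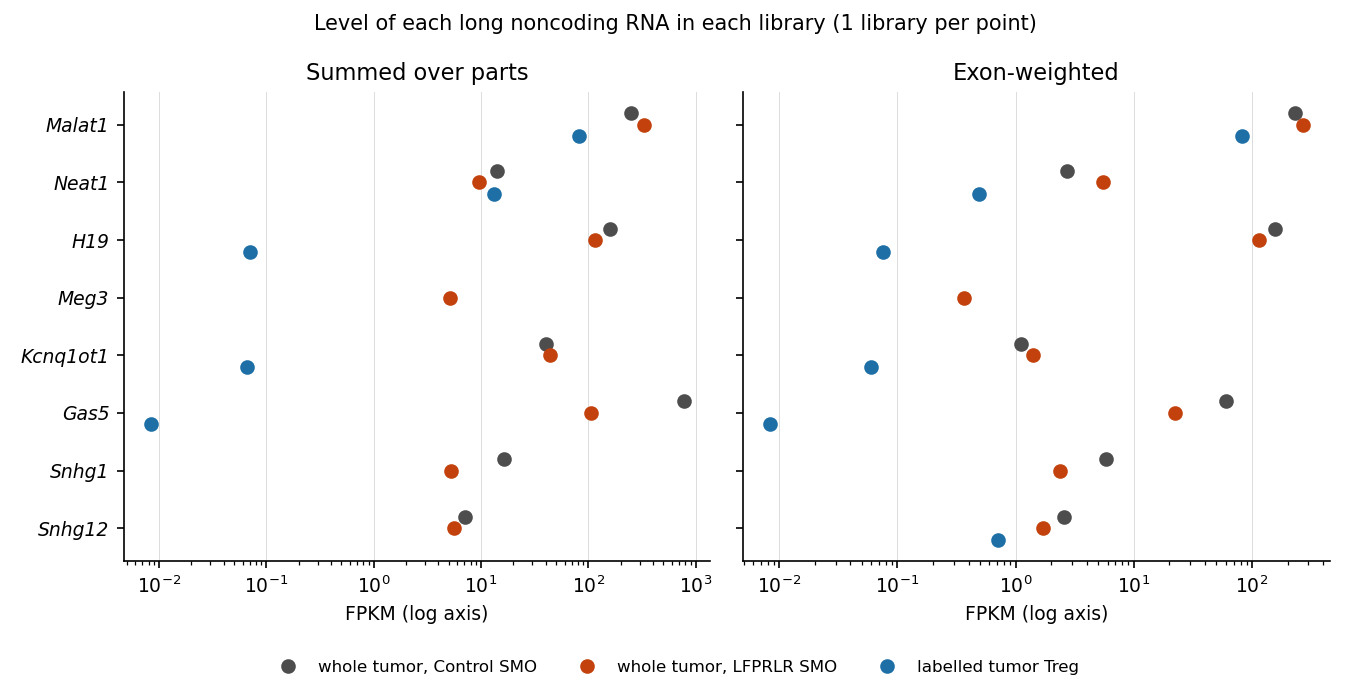
FPKM of each gene on log axes, summed over its parts and exon-weighted, with 1 point per library and no point where nothing was listed. *Malat1* lies highest in the library labelled tumor Treg, at 81.7 FPKM, and *Kcnq1ot1* moves from 40.2 and 43.6 FPKM summed to 1.11 and 1.403 FPKM weighted, while the weighted *Snhg12* point of that library, at 0.711 FPKM, is its *Snora16a* transcript.

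In the library labelled tumor Treg, 2 of the 8 genes were listed at 1 FPKM or more. *Malat1* was the highest, and *Neat1* had 4 parts without strand between 2.89 and 3.58 FPKM and 1 annotated short form of 3177 bases at 0. The *Neat1* parts above 0 were 267 to 2202 bases long and covered 16.1% of the gene, and its weighted level was 0.490 FPKM. *H19*, *Kcnq1ot1* and *Gas5* were listed below 0.1 FPKM as long annotated transcripts at read depths below 1, so their length says nothing of coverage. *Meg3*, *Snhg1* and *Snhg12* had no part. The snoRNA *Snora16a* inside *Snhg12* was listed at 8.04 FPKM and a depth of 7.61, while *Snora44* and *Snora61* there and *Snord22* inside *Snhg1* were listed at 0. The ribosomal precursor *Rn45s* made up 72.3% of FPKM times length in that library, and levels there were normalized by another program than those of whole tumor.

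**Figure D5:**
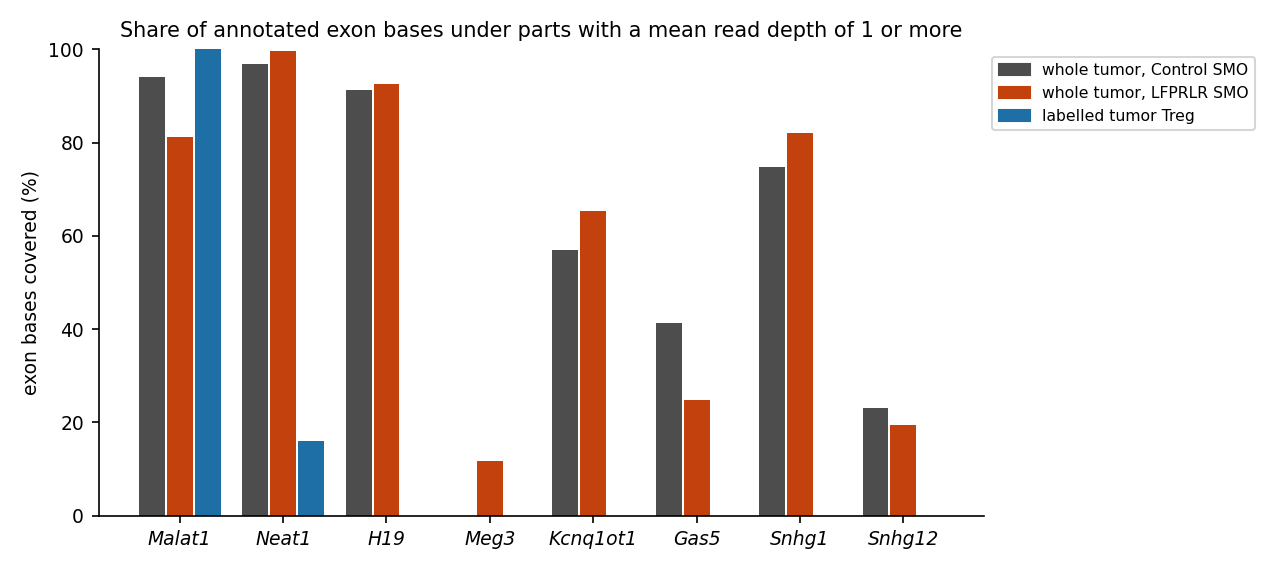
Share of the annotated exon bases of each gene, in percent, under parts with a mean read depth of at least 1, with 1 bar per library and no bar at 0. *Malat1*, *Neat1* and *H19* are above 80% in both whole tumor libraries, and *Snhg12* is at 23.2% and 19.4%.

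Other snoRNA host lncRNAs did not move one way. Of 16 on the list, 13 were in the annotation and 10 were at 1 FPKM or more, of which 5 were higher and 2 lower with LFPRLR SMO by a factor of 2, against 18.7% and 17.1% of all genes. *Snhg20* was listed at 18.3 FPKM with Control SMO and 211 FPKM with LFPRLR SMO, and at 3.18 and 17.5 FPKM weighted. *Snhg8* was listed at 59.9 and 15.5 FPKM, and at 31.2 and 8.97 FPKM weighted. *Epb41l4aos* was listed with LFPRLR SMO only, at 7.73 FPKM, although its weighted level was 1.002 FPKM with Control SMO, and *Dancr* was listed with LFPRLR SMO only, at 1.47 FPKM. By weighted level 3 of 9 were higher and 1 lower, against 5.74% and 8.53% of all genes.

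Among 24 further lncRNAs, 12 were at 1 FPKM or more, of which 2 were higher and 2 lower, near the 18.7% and 17.1% of all genes. By weighted level 1 of 9 was higher and none lower, against 5.74% and 8.53%. *Tug1*, a widely expressed nuclear RNA, was listed at 15.6 and 10.9 FPKM summed but at 9.12 and 10.2 FPKM weighted, and *Xist*, which silences the inactive X chromosome, at 11.9 and 13.6 FPKM. *Dnm3os* was listed with LFPRLR SMO only, at 1.63 FPKM, and *Ftx* with Control SMO only, at 1.46 FPKM. Of the 4 small structural RNAs, the transcription regulator *Rn7sk* was listed at 48942 and 40704 FPKM, the RNase P RNA *Rpph1* at 2104 and 1858 FPKM and the telomerase RNA *Terc* at 5.08 and 5.88 FPKM. The remaining 1, *Rmrp*, had no whole tumor transcript assigned to it, but its weighted level was 3616 and 2404 FPKM.

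Proteins of the nuclear bodies, snoRNA particles and decay pathway named above were all listed in whole tumor, and several summed orders turned when parts were weighted. Of 12 paraspeckle proteins, 4 were higher by a factor of 2 when summed, against 18.7% of all genes. Summed, *Rbm14* was at 3.11 and 8.86 FPKM and *Pspc1* at 2.26 and 6.33 FPKM. By weighted level none was higher or lower, which for 12 genes is near the 5.74% and 8.53% of all genes. Weighted, *Rbm14* was at 2.68 and 2.62 FPKM and *Pspc1* at 1.90 and 2.95 FPKM. *Matr3*, the most abundant, was at 58.5 and 40.8 FPKM summed and at 10.2 and 11.03 FPKM weighted. None of the 6 nuclear speckle proteins differed by the factor by either measure. Of all genes, 18.7% were higher and 17.1% lower summed, and 5.74% and 8.53% weighted. The splicing factor subunit *Sf3b1* was at 78.8 and 65.3 FPKM summed and at 16.3 and 14.4 FPKM weighted. The speckle scaffold *Srrm2* was at 30.8 and 20.96 FPKM summed but at 19.2 and 20.1 FPKM weighted. *Srsf1*, a splicing factor, was at 24.2 and 13.5 FPKM summed and at 14.6 and 12.8 FPKM weighted, and *Son*, another speckle scaffold, at 10.7 and 19.2 FPKM summed and at 9.84 and 10.2 FPKM weighted.

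Of 8 proteins of snoRNA particles, 2 were higher and 2 lower when summed and none higher and 2 lower when weighted. The shares of all genes were 18.7% and 17.1% summed, near the former counts, and 5.74% and 8.53% weighted. *Nhp2*, a box H/ACA core protein, was at 33.7 and 7.87 FPKM summed and at 11.5 and 5.60 FPKM weighted. *Gar1*, of the same core, was at 52.8 and 39.9 FPKM. *Fbl*, the box C/D methyltransferase, was at 8.38 and 26.4 FPKM summed and at 4.16 and 5.37 FPKM weighted. The median log2 ratio of the 8 was -0.42 weighted, against -0.16 for all genes. Of 9 factors of nonsense-mediated decay, 1 was lower when summed, *Upf3b* at 15.3 and 3.25 FPKM, and none differed by the factor when weighted, where *Upf3b* was at 3.88 and 2.46 FPKM. *Smg6*, the endonuclease of this pathway, was at 16.8 and 14.1 FPKM, *Smg1*, its kinase, at 13.1 and 16.9 FPKM, and *Eif4a3*, of the exon junction complex, at 10.6 and 5.34 FPKM.

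The nearest protein-coding genes within 50 kb were compared by weighted level. *Frmd8*, next to *Neat1*, was at 0.746 and 0.946 FPKM weighted. *Slc3a2*, an amino acid transporter subunit whose gene lies 106 bases from the *Snhg1* start on the opposite strand, was at 7.02 and 5.88 FPKM weighted, and *Wdr74* beyond *Snhg1* at 1.76 and 2.68 FPKM. *Trnau1ap*, 739 bases from *Snhg12*, was at 1.93 and 1.31 FPKM, and *Mrpl23*, 34782 bases from *H19*, at 2.67 and 1.47 FPKM. *Zbtb37*, which overlaps *Gas5* on the opposite strand, was at 0.600 and 0.869 FPKM. *Serpinc1*, *Rtl1* and *Rab42* had no transcript in either.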

How the data were processed

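RNA was pooled from 6 mice per treatment, depleted of ribosomal RNA and sequenced as 1 library for whole tumor and 1 for sorted tumor cells. The authors deposited transcript lists on mm10, each transcript with an FPKM and a mean read depth, and for whole tumor with bounds. The whole tumor lists come from Cufflinks, of which the version is not given in the sources used here. The lists labelled tumor Treg come from StringTie 1.2.3, guided by an annotation. The submitters' processing notes also name HISAT2 2.0.4 and Cuffdiff 2.0.2. Numbers of reads are not given in the sources used here, so that depth is known only as the read depth of each part. The 2 lists labelled tumor Treg hold equal values and their headers name the same control alignment, so they were counted as 1.

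Transcripts were assigned to GENCODE M21 genes (GRCm38, the same assembly as mm10) by at least 1 shared intron or at least 50% of exon bases. In the list labelled tumor Treg, 2239 of 4838 transcripts carried a gene name and were assigned by that name instead. Transcripts on the opposite strand were not assigned and those without strand were allowed. A gene's FPKM was the sum over its parts. The weighted level was the sum of FPKM times bases shared with the gene's exons, on its strand or without strand, over the length of the longest annotated transcript. Ratios used a pseudocount of 0.1 FPKM and understate the difference of low genes. Genes at 1 FPKM or more in either library were counted as higher or lower at a factor of 2. A gene with no listed transcript enters as 0 and is not shown to be unexpressed. With 1 library per group no test was made.

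The 8 genes and the lists were chosen with earlier results of these data known. All 8 were named, with the small RNAs inside them, the nearest protein-coding genes within 50 kb, and in each list the 2 highest genes and the 2 with the largest ratios. Some genes that this rule names are not reported here. *Rian*, *Dlk1*, *Igf2* and *Rmrp*, and the junctions printed, were chosen after their values were seen. The assignment was tested on simulated transcripts of 2000 genes, of which 100% of spliced transcripts and 99.5% of single-exon pieces went to their gene. These were copies of annotated transcripts or pieces of an annotated exon, all with their strand. The test therefore does not measure assignment of parts without strand, or of parts that run into introns or past gene ends. Scripts ran in Python 3.11.15 with numpy 2.4.6, and figures were drawn with matplotlib 3.10.9.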

Additional observations from a re-analysis of the deposited data

Results flagged for a closer look

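With LFPRLR SMO, 3 transcripts crossed a gene described above without being assigned to it, and Control SMO had none of the kind there. They lie outside the values used for the 8 genes. A transcript of 956 bases without introns at 2.31 FPKM ran on the strand opposite to *Gas5*, from before its annotated start to 610 bases past it, and shared 252 bases with its exons. A transcript without strand of 1014 bases at 1.18 FPKM lay in an intron of *Meg3*, 6732 to 7745 bases from the start. The *Kcnq1* transcript at 1.55 FPKM crossed *Kcnq1ot1* on the opposite strand and shared 121 bases with it. Each rests on 1 library, and their read depths were 3.43, 2.12 and 2.16.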

How the results depend on the processing

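For the 8 genes, 1 was counted as higher and 2 as lower by a factor of 2 with pseudocounts of 0.01 and 1, with the most abundant part only, after centring on the median gene, with 80% of exon bases, with any exon overlap and with own-strand parts only. By weighted level the counts were the same over the 8 genes, but the 1 higher, *Meg3* at 0.369 FPKM, is below the minimum of 1 FPKM, so that 0 of the 7 genes above it were higher. With parts of at least 300 bases, 1 was lower, and *Gas5* turned to a log2 ratio of 0.36. A TPM over all transcripts gave 8 higher and 0 lower, with *Neat1* at 3.35, *H19* at 4.00, *Gas5* at 1.68, *Snhg1* at 2.40 and *Snhg12* at 3.13. Added after seeing the data, spliced parts only (4 genes) gave 0 higher and 1 lower with *Gas5* at 0.83, bases covered in both libraries (7 genes) gave 0 higher, and a TPM over transcripts of at least 300 bases gave 1 lower with *Gas5* at 0.50. *Neat1* was at 0.64 with the most abundant part or own-strand parts, 0.97 weighted and 0.94 over bases covered in both. Over all genes, 895 were higher and 856 lower at 5 FPKM or more, 1275 and 1124 by a factor of 3, and 511 and 759 weighted, against 1958 and 1790. In the library labelled tumor Treg, 1 gene in place of 2 was at 1 FPKM or more weighted. Over the other gene lists, 4 of 59 genes were higher and 3 lower weighted, near the 5.74% and 8.53% of all genes. Summed, 14 of 63 were higher and 8 lower, near the 18.7% and 17.1% of all genes. No paired analysis was possible because each group is 1 library, and no library could be left out. Depth limits the low genes: parts of *Kcnq1ot1* and *Snhg1* had read depths of 1.26 to 22.2, so breaks between parts and missing introns there are not shown to be absent RNA.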
